A study of Mus musculus with 24 samples.

Results

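The comparison set the Q91 knock-in line against the Q111 knock-in line of mouse embryonic stem cells, on 6 of the 24 arrays of the series. The 3 arrays titled Q91 and the 3 titled Q111 were chosen by their titles. A probe set was used if its log2 value reached 5 on 3 or more of the 24 arrays. Genes of chromosomes 8 and 11 were held apart from the rest: of 9511 genes represented by 1 probe set each, 8155 lay elsewhere, 541 on chromosome 8, 801 on chromosome 11, and 14 had no placed chromosome.

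Both lines are undifferentiated 129/Sv embryonic stem cells, heterozygous at Hdh, the older name of Htt. Each keeps an allele of 7 CAG repeats. By the genotype labels the other allele holds 85 repeats in Q91 and 111 in Q111. The remaining arrays are 6 control arrays (7 repeats on each allele), 6 knock-out arrays, 3 of the Q20 line (longer allele of 16 repeats) and 3 of the Q50 line (longer allele of 45, and 43 in replicate 3). Each title says biological replicate. The sources used here do not say whether they came from separate clones or cultures, and the spread behind a p-value may therefore be technical. Repeat length and line cannot be told apart, since each length is carried by 1 line.

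Huntingtin is a large scaffold protein involved in vesicle transport, transcription and autophagy, and its CAG repeat encodes a run of glutamines. Long repeats cause Huntington's disease in people, and both lines here lie far beyond the disease threshold. Embryonic stem cells carry huntingtin before any neuron exists. They pass between a naive state, marked by factors such as Zfp42 and Klf2, and a primed state, marked by Zic2, Fgf5 and Otx2.

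The arrays grouped by line only in part. Over all tested probe sets, Q111 replicates 1 and 2 were each other's most similar array (r = 0.993), and the array most like Q91 replicate 2 was Q91 replicate 3 (r = 0.979). Q91 replicate 1 and Q111 replicate 3 correlated with r = 0.986, and each was the other's most similar of the 23 possible. Q91 replicate 1 correlated less with Q91 replicate 2 (r = 0.961) and Q91 replicate 3 (r = 0.973), and Q111 replicate 3 less with Q111 replicate 1 (r = 0.976) and Q111 replicate 2 (r = 0.975). The array most like Q91 replicate 3 was Q50 replicate 2 (r = 0.988). On the second principal component, with 10.5% of the variance, the Q91 arrays lay at -21.5, 45.6 and 19.5, against 5.15, 4.89 and -26.0 for the Q111 arrays, in the order of their replicates. The 3' to 5' difference of Actb, a measure of RNA integrity, was 0.94, 0.79 and 0.87 in Q91 and 0.89, 0.83 and 0.92 in Q111, so that Q91 replicate 1 and Q111 replicate 3 held the highest values by a small margin; its part in the results was not tested. Between 37.6% and 37.9% of probe sets reached a log2 value of 5 on each. Results are therefore given with both arrays and without them, the second choice being made after the data were seen.

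The defining markers of embryonic stem cells were present on every array, with 10 of 10 at a log2 value of 5 or more on all 6. Their mean level ran from 13.3 to 13.5 in Q91 and from 13.3 to 13.7 in Q111. Of 10 fibroblast markers, which feeder cells would bring, 5 were under 5 on all 6 arrays, among them Dcn, which averaged 2.26 in Q91 and 2.19 in Q111. At 5 or more on all 6 were 2, the collagen Col1a1, on chromosome 11, with means of 7.48 in Q91 and 8.40 in Q111, and the matrix protein Fbln1, with means of 8.40 and 8.49. The mean level over that list ran from 3.86 to 4.83 in Q91 and from 4.35 to 4.58 in Q111. In the longer list of feeder markers 9 genes passed the filter, of which 0 rose, 0 fell and 2 were lower at an unadjusted p under 0.05. The array medians of these 9, from the Q111 mean, were 0.04, -0.46 and -1.33 in Q91, against 0.22, 0.07 and -0.62 in Q111. Their median difference was -0.57, or -0.25 for the 7 off chromosomes 8 and 11. It was -1.21 without Q91 replicate 1 and Q111 replicate 3, -1.09 without Q91 replicate 1 alone and 0.019 without Q91 replicate 3. The part of these markers in the results was not tested. Under 5 on all 6 arrays were also 6 of 8 primitive endoderm, 5 of 6 trophoblast and 3 of 3 mesoderm markers. A further mesoderm marker, T, was not found on the array under its symbol. The primitive endoderm marker Lama1 ran from 8.05 to 9.30 over the 6 arrays. Of 4 neuroectoderm markers, 2 were under 5 on all 6 arrays and 2 at 5 or more. The latter were Nes, from 6.36 to 8.01, and Tubb3, from 8.78 to 9.68. The trophoblast keratin Krt7 reached 7.18 in Q91 replicate 2 alone, against 3.58 and 4.62 in the other Q91 arrays and 4.60 to 4.89 in Q111.

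Htt itself did not separate the lines. On its strongest probe set the Q91 arrays held 6.67, 6.83 and 7.39, against 7.39, 6.84 and 7.42 in Q111, so the groups overlapped. The mean was 6.96 ± 0.38 in Q91 and 7.22 ± 0.32 in Q111 (SD, n = 3 each), a difference of -0.25 with a 95% interval from -0.72 to 0.21 (limma adjusted p = 0.693). The second probe set differed by 0.06 (adjusted p = 0.942) and the third by 0.28 (adjusted p = 0.434, with a Q111 mean of 4.98, under the level of the filter). The fourth did not pass the filter. Of the genes next to Htt, 7 were measured, 0 of them passed the test, 1 was higher and 0 lower at an unadjusted p under 0.05, and their median difference was -0.13. Single arrays decided that median: it was -0.012 without Q111 replicate 1, -0.017 without Q91 replicate 3, -0.061 without Q91 replicate 1, 0.0025 without Q111 replicate 3 and 0.042 without Q91 replicate 1 and Q111 replicate 3.

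The question of the main comparison is which genes differ between lines that both carry a long repeat. In a limma fit of all 24 arrays, 81 of 17980 probe sets (0.451%) passed an adjusted p of 0.05, with 24 higher and 57 lower in Q91, and such probe sets or genes are those said below to have risen, fallen or passed. In genes, 40 passed (0.421%), with 12 higher (0.126%) and 28 lower (0.294%). Off chromosomes 8 and 11 there were 21 (0.258%), with 12 higher (0.147%) and 9 lower (0.11%). At an unadjusted p under 0.05 there were 2416 probe sets (13.4%). Differences were mostly small. The 95% interval lay within -1 to 1 for 7781 genes (81.8%), with a median half-width of 0.40. Standard errors, intervals and p-values of this fit pool the spread of all groups on the 24 arrays. They can understate the spread within Q91 and Q111. A difference of 1 or more in either direction was measured for 207 genes, of which 19 passed, and of 2 or more for 20, of which 4 passed.

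These counts rested on single arrays. Leaving out Q91 replicate 1 raised the 81 probe sets to 1280 (343 higher, 937 lower), and leaving out Q111 replicate 3 raised them to 224. Leaving out any of the other arrays lowered them: to 26 without Q91 replicate 2, 22 without Q91 replicate 3, 8 without Q111 replicate 1 and 38 without Q111 replicate 2. For genes off chromosomes 8 and 11 the 21 became 410 without Q91 replicate 1, 8 without Q91 replicate 2, 9 without Q91 replicate 3, 3 without Q111 replicate 1, 8 without Q111 replicate 2 and 54 without Q111 replicate 3. Without Q91 replicate 1 and Q111 replicate 3 together, 1047 probe sets passed, and 323 genes off chromosomes 8 and 11 (173 higher, 150 lower). Fitted on the 6 arrays of the 2 lines alone, limma gave 0 probe sets after adjustment and 1470 at an unadjusted p under 0.05. For scale, and with arrays shared between these comparisons, the same fit gave 54 probe sets (0.3%) for Q111 against Q20, 162 (0.901%) for Q91 against Q20, 526 (2.93%) for Q91 against Q50, 1112 (6.18%) for Q50 against Q20 and 2384 (13.3%) for Q111 against Q50.

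**Figure D1:**
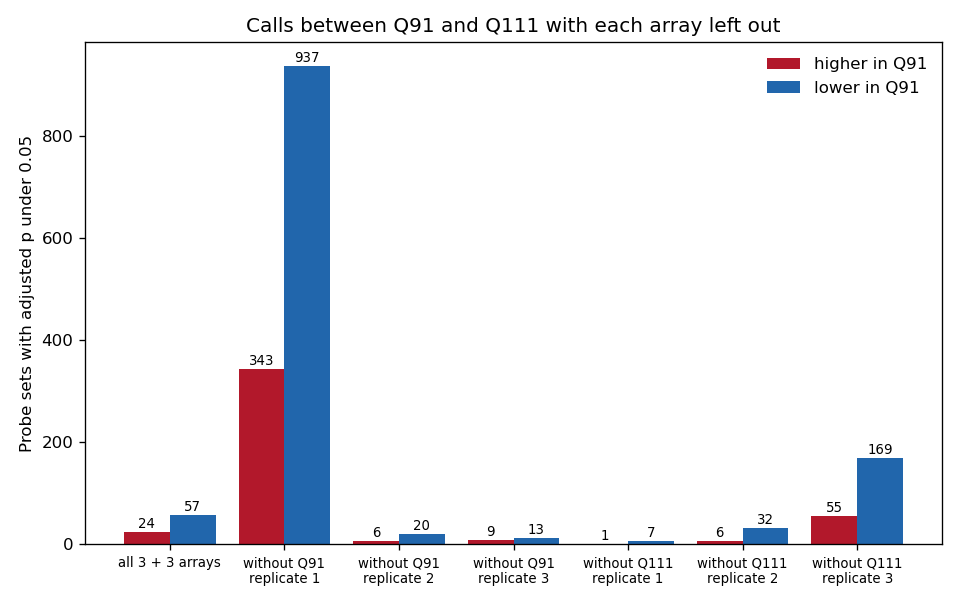
Number of probe sets (vertical axis) with an adjusted p under 0.05 between Q91 and Q111, higher in Q91 (red) and lower in Q91 (blue), with all arrays and with each of the 6 arrays left out. The counts reach 343 and 937 without Q91 replicate 1 and stand at 1 and 7 without Q111 replicate 1.

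Against the Q111 mean, genes of chromosome 8 lay low on all 3 Q91 arrays and those of chromosome 11 on 2 of them, along the whole length of each. Each array's level of a chromosome was taken as the median over its genes of the log2 value minus the mean of the 3 Q111 arrays. These values are a description, with no test, because the chromosomes were chosen with results known. On chromosome 8 the Q91 arrays lay at -0.35, -0.34 and -0.35, and the Q111 arrays at 0.19, 0.16 and -0.36. Q111 replicate 3 was thus as low as the Q91 arrays. On chromosome 11 the Q91 arrays lay at 0.03, -0.55 and -0.56, and the Q111 arrays at 0.00, -0.02 and 0.02. Q91 replicate 1 therefore lay with the Q111 arrays, and the low level belonged to the other two. Chromosome 1 had a pattern of its own, with Q91 at 0.39, -0.17 and -0.18 and Q111 at -0.22, -0.24 and 0.45: high in Q91 replicate 1 and Q111 replicate 3 and low in the 4 others.

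The other 17 chromosomes stayed between -0.076 and 0.088 on all 6 arrays. The largest spread among the 6 was 0.12 there, against 0.69 on chromosome 1, 0.55 on chromosome 8 and 0.59 on chromosome 11. Over genes, the median difference of Q91 minus Q111 was -0.35 on chromosome 8 and -0.35 on chromosome 11, beside -0.0025 over all genes and 0.031 off both chromosomes. Without Q91 replicate 1 and Q111 replicate 3 these medians were -0.53 and -0.53. DNA copy number was not measured in these data.

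**Figure D2:**
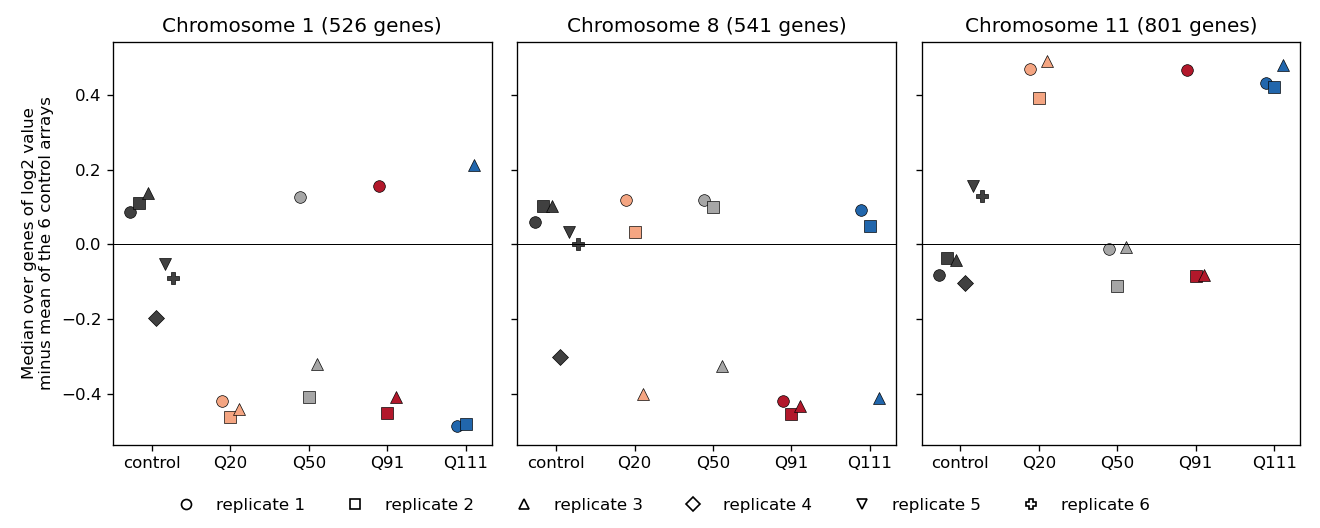
Median log2 value of the genes of chromosomes 1, 8 and 11 on each array minus the mean of the 6 control arrays (vertical axis, log2 units), by group (horizontal axis). Each point is an array and its shape is the replicate number. On chromosome 8 all 3 Q91 arrays lie low, with Q111 replicate 3, and on chromosome 11 Q91 replicate 1 lies with the Q111 and Q20 arrays.

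The shift ran along each chromosome without a break at the resolution of 8 blocks of genes in chromosomal order. On chromosome 11 the 8 blocks ran from -0.04 to 0.08 in Q91 replicate 1, from -0.67 to -0.47 in replicate 2 and from -0.64 to -0.50 in replicate 3, against -0.05 to 0.06 over the 3 Q111 arrays. On chromosome 8 they ran from -0.49 to -0.18 over the Q91 arrays, against 0.11 to 0.23 in Q111 replicates 1 and 2 and -0.41 to -0.30 in Q111 replicate 3. Every block of the low arrays was thus low, and every block of the high arrays high. Of the chromosome 11 genes, 24.7% in Q91 replicate 1, 78.4% in replicate 2 and 82.3% in replicate 3 lay below all 3 Q111 arrays. Off chromosomes 1, 8 and 11 these shares were 22.1%, 28.4% and 26.0%.

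**Figure D3:**
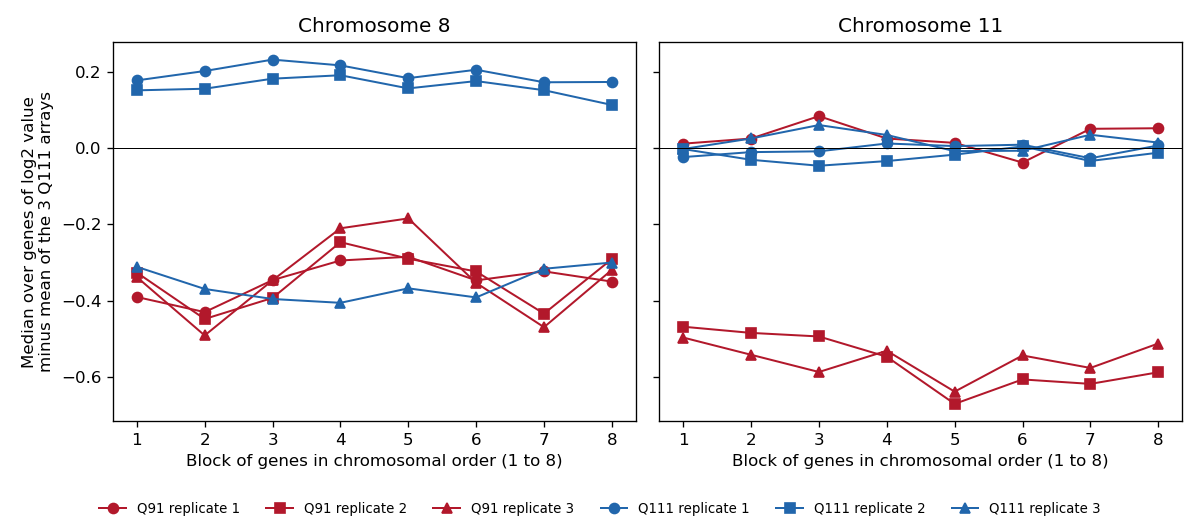
Median log2 value minus the mean of the 3 Q111 arrays (vertical axis) for 8 blocks of genes in chromosomal order (horizontal axis) on chromosomes 8 and 11, with a line for each Q91 (red) and Q111 (blue) array. No line crosses from the low to the high level along either chromosome.

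Set against the 6 controls, the same levels recurred in other lines. For chromosome 8 the arrays of the controls ran from -0.30 to 0.10, of Q20 from -0.40 to 0.12, of Q50 from -0.32 to 0.12, of Q91 from -0.45 to -0.42 and of Q111 from -0.41 to 0.09. Q91 was thus the line whose 3 arrays were all low, while Q20, Q50 and Q111 each held low and high arrays. For chromosome 11 the controls ran from -0.10 to 0.16, Q20 from 0.39 to 0.49, Q50 from -0.11 to -0.01, Q91 from -0.084 to 0.47 and Q111 from 0.42 to 0.48. Chromosome 11 was high in all arrays of Q20 and Q111 and in 1 array of Q91. Q91 replicates 2 and 3, at -0.084 and -0.082, lay within the range of the controls, so they were low against Q111 and not against controls.

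On chromosome 8, 0 genes rose and 4 fell (0.739% of 541), and on chromosome 11, 0 rose and 15 fell (1.87% of 801). Beyond the test, all 3 Q91 arrays lay below all 3 Q111 arrays for 114 chromosome 8 genes (21.1%) and 151 chromosome 11 genes (18.9%). They lay above them for 2 (0.37%) and 9 (1.12%). Off both chromosomes the shares ran the other way, with 607 genes above (7.44%) and 365 below (4.48%). Without Q91 replicate 1 and Q111 replicate 3, 96 chromosome 8 genes fell and 0 rose, and 230 chromosome 11 genes fell and 2 rose. Without Q91 replicate 1 alone 47 chromosome 8 genes and 307 of chromosome 11 fell, and without Q111 replicate 3 alone 48 and 24. Leaving out Q91 replicate 2 left 1 on chromosome 8 and 2 on chromosome 11, Q91 replicate 3 left 1 and 0, Q111 replicate 1 left 1 and 0, and Q111 replicate 2 left 1 and 8.

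The 4 chromosome 8 genes that fell were Pgpep1, Lonrf1, Gipc1 and Mvd. Pgpep1, which removes pyroglutamate from the ends of peptides, held 5.24, 5.18 and 5.30 in Q91, against 6.30, 6.36 and 5.96 in Q111, a difference of -0.97 with a standard error of 0.14 (adjusted p = 0.00530). It was low in Q91 rather than high in Q111: control arrays ran from 6.32 to 6.71, Q20 from 6.05 to 6.27 and Q50 from 6.25 to 6.37. Lonrf1, a ring-finger protein, fell by 1.03 (adjusted p = 0.0465) and Gipc1, an adaptor of cargo to myosin VI, by 0.92 (adjusted p = 0.0481). Mvd, the mevalonate diphosphate decarboxylase of cholesterol synthesis, fell by 0.72 (adjusted p = 0.0384). With each gene of chromosomes 8 and 11 taken minus its chromosome's median on each array, 0 of these 4 passed, and Pgpep1 differed by -0.63 (adjusted p = 0.0519). The adjustment, shared by all probe sets, changes with that step as well.

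On chromosome 11 the largest falls were in Smtnl2, Tmc6, Dynll2, Trpv2 and Map2k6. Smtnl2, a smoothelin-like protein, held 9.14, 7.70 and 8.10 in Q91 and 9.78, 9.67 and 9.72 in Q111, a difference of -1.41 with a standard error of 0.27 (adjusted p = 0.0231). Dynll2, a light chain shared by dynein and myosin V, held 11.37, 10.19 and 10.01 in Q91 and 12.02, 11.97 and 11.48 in Q111, a difference of -1.30 (adjusted p = 0.0202). The other probe set tested differed by -0.16 for Smtnl2 (adjusted p = 0.837) and by -1.52 for Dynll2 (adjusted p = 0.0157). On the probe sets used, Q91 replicate 1 lay closest to the Q111 arrays in both genes, as for the chromosome as a whole. Map2k6, a kinase that activates p38, fell by 1.28 (adjusted p = 0.0155) and Tmc6 by 1.39 (adjusted p = 0.0465). Trpv2, a cation channel, differed by -1.30 (adjusted p = 0.0140), with a Q91 mean of 4.67 under the level of the filter, so its size is not settled. Among the other 10, named after their values were seen, were the Polycomb subunit Suz12 (-1.24, adjusted p = 0.0338), acetyl-CoA carboxylase Acaca (-0.82, adjusted p = 0.0109), the sterol-regulatory factor Srebf1 (-0.77, adjusted p = 0.0232) and the adaptor Grb2, which binds huntingtin (-0.73, adjusted p = 0.0433). These 4 differences stand on a chromosome whose median gene differed by -0.35. For these 4 the control means lay nearer to Q91 than to Q111, as for Suz12 (12.76 in controls, 12.83 in Q91 and 14.07 in Q111). The control means of Smtnl2, Tmc6, Dynll2 and Map2k6 lay nearer to Q111. Taken minus the chromosome's median on each array, 3 of the 801 genes passed, and of the 5 with the largest falls these were Dynll2 (adjusted p = 0.0342) and Map2k6 (adjusted p = 0.0203).

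Off the 2 chromosomes, the 12 genes that rose in Q91 were led by Spink1, Insm1 and Slc40a1. Spink1, a secreted inhibitor of trypsin, held 7.68, 10.05 and 10.32 in Q91, against 7.27, 7.20 and 5.67 in Q111, a 6.22-fold difference (log2 difference 2.64, standard error 0.56, adjusted p = 0.0382). Its SD was 1.46 in Q91 and 0.90 in Q111 (n = 3 each), wider than the pooled spread behind that standard error. Q111 was the low line for Spink1, with a mean of 6.71, against 8.74 in controls, 8.62 in Q20, 10.12 in Q50 and 9.35 in Q91. Insm1, a zinc-finger factor of neuroendocrine cells, held 6.34, 7.73 and 7.94 in Q91, against 5.13, 5.22 and 4.59 in Q111, a log2 difference of 2.36 (standard error 0.37, adjusted p = 0.00738). Its Q111 mean of 4.98 lay under the filter's level, so the size of the change is not settled. Slc40a1, ferroportin, the iron exporter of cells, held 6.47, 8.02 and 8.14 in Q91, against 5.17, 5.21 and 5.47 in Q111, a 4.80-fold difference (log2 difference 2.26, adjusted p = 0.0277). In all 3 genes Q91 replicate 1 was the lowest of its line, and no Q91 array reached down to a Q111 array.

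Slc40a1 was also at odds with the controls, whose arrays ran from 2.37 to 2.77, below the filter's level; its line means were 5.72 in Q20, 6.22 in Q50, 7.54 in Q91 and 5.28 in Q111. Slc40a1 was the iron handling gene that rose, and 0 of the 10 measured in that list fell; the median of the list was 0.11. Ncoa4, the receptor that delivers ferritin to the lysosome, differed by 0.32 (adjusted p = 0.220).

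Folr1, Rasgrp2, Dnmt3l and Gpx1 rose by less. Folr1, a folate receptor, held 9.71, 11.23 and 10.75 in Q91, against 9.42, 9.39 and 9.11 in Q111, a 2.39-fold difference (adjusted p = 0.0382). Rasgrp2, an activator of Rap GTPases, held 10.03, 10.12 and 9.94 in Q91, against 8.50, 8.85 and 9.28 in Q111, a 2.22-fold difference (adjusted p = 0.0145). For Rasgrp2 it was Q111 that stood apart, since the means were 9.93 in controls, 9.67 in Q20 and 10.03 in Q50. Dnmt3l, the catalytically inactive partner of the de novo DNA methyltransferases, held 12.93, 13.68 and 13.78 in Q91, against 12.65, 12.69 and 12.64 in Q111 (log2 difference 0.80, adjusted p = 0.0476). It was the member of 12 measured DNA methylation and demethylation genes that rose, and 0 fell; Uhrf1, which brings Dnmt1 to replicating DNA, differed by 0.35 (adjusted p = 0.376). Gpx1, a glutathione peroxidase, rose by 0.76 (adjusted p = 0.0427). Here too Q111 was the low line, with a mean of 12.28, against 12.73 in controls, 12.83 in Q20, 12.99 in Q50 and 13.05 in Q91.

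The others that rose were Bmerb1 (1.26, adjusted p = 0.0435), Plxdc2 (1.09, adjusted p = 0.0382), Ptpn13 (0.96, adjusted p = 0.0453), Rsrp1 (0.83, adjusted p = 0.0292) and Cltb (0.71, adjusted p = 0.0463). Ptpn13 is a protein tyrosine phosphatase, Plxdc2 a plexin-domain membrane protein and Cltb a light chain of clathrin, the coat of endocytic vesicles. The Q111 mean of Plxdc2, 4.32, lay under the filter's level. For Cltb, Q111 was the low line, with a mean of 8.61, against 9.88 in controls, 9.21 in Q20, 9.79 in Q50 and 9.32 in Q91.

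Of the 9 genes off these chromosomes that fell in Q91, Zic2 fell farthest. This zinc-finger factor of the primed epiblast held 5.86, 3.82 and 4.15 in Q91, against 7.35, 6.80 and 7.70 in Q111, a difference of -2.67 (standard error 0.40, adjusted p = 0.00530). The Q91 mean of 4.61 lay under the filter's level. Q111 was the high line, with means of 3.79 in controls, 5.58 in Q20, 4.22 in Q50, 4.61 in Q91 and 7.29 in Q111. Among 14 measured primed epiblast genes Zic2 was the one that fell and 0 rose. Its neighbour Zic5 held 10.17, 8.64 and 9.24 in Q91, against 10.56, 10.45 and 10.24 in Q111 (-1.06, adjusted p = 0.113). The growth factor Fgf5 differed by -1.71 (adjusted p = 0.213) with overlapping groups. The list's median difference was 0.02 with all arrays, -0.24 without Q91 replicate 1, -0.17 without Q111 replicate 3 and -0.30 without both. It was also below 0 without Q91 replicate 2 (-0.043) and without Q111 replicate 1 (-0.070).

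Scd2, Fads1 and Psat1, 3 enzymes of metabolism, fell as well. Scd2, a stearoyl-CoA desaturase, held 13.36, 13.49 and 12.90 in Q91, against 14.21, 14.24 and 13.99 in Q111, a difference of -0.90 with a standard error of 0.18 (adjusted p = 0.0256). Fads1, the desaturase that makes arachidonic acid, held 8.71, 8.29 and 7.66 in Q91, against 9.50, 9.45 and 9.22 in Q111, a difference of -1.17 (adjusted p = 0.0357). For both, the control means, 13.48 for Scd2 and 8.84 for Fads1, lay between those of Q91 (13.25 and 8.22) and Q111 (14.15 and 9.39). Psat1, a transaminase of serine synthesis, held 13.01, 12.54 and 12.83 in Q91, against 13.41, 13.30 and 13.47 in Q111, a difference of -0.60 (adjusted p = 0.0155). Its control mean of 13.38 was close to the Q111 mean of 13.39, and Q91, with a mean of 12.79, was the low line.

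The remaining falls were in Tbc1d12, Cnot6l, Mppe1, H2-Bl and Armcx3. Cnot6l, a deadenylase of the CCR4-NOT complex, held 7.84, 7.73 and 6.82 in Q91, against 8.50, 8.49 and 8.90 in Q111 (-1.17, adjusted p = 0.0145). Tbc1d12, which carries a Rab GTPase-activating domain, fell by 1.70 (adjusted p = 0.0382) and Mppe1, which remodels GPI anchors, by 0.98 (adjusted p = 0.0382). H2-Bl, an MHC class I gene, held 5.24, 5.08 and 5.12 in Q91, against 5.71, 6.05 and 5.95 in Q111, a difference of -0.75 (adjusted p = 0.00586). Its family has near-identical copies that probes may not tell apart. Armcx3, a mitochondrial outer membrane protein of the X chromosome, held 7.04, 6.62 and 6.67 in Q91, against 7.60, 7.61 and 7.35 in Q111 (-0.74, adjusted p = 0.00845). In Armcx3 and H2-Bl, Q111 was the line apart, since control, Q20 and Q50 means were 6.67, 6.72 and 6.57 for Armcx3 and 5.03, 5.41 and 5.07 for H2-Bl.

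**Figure D4:**
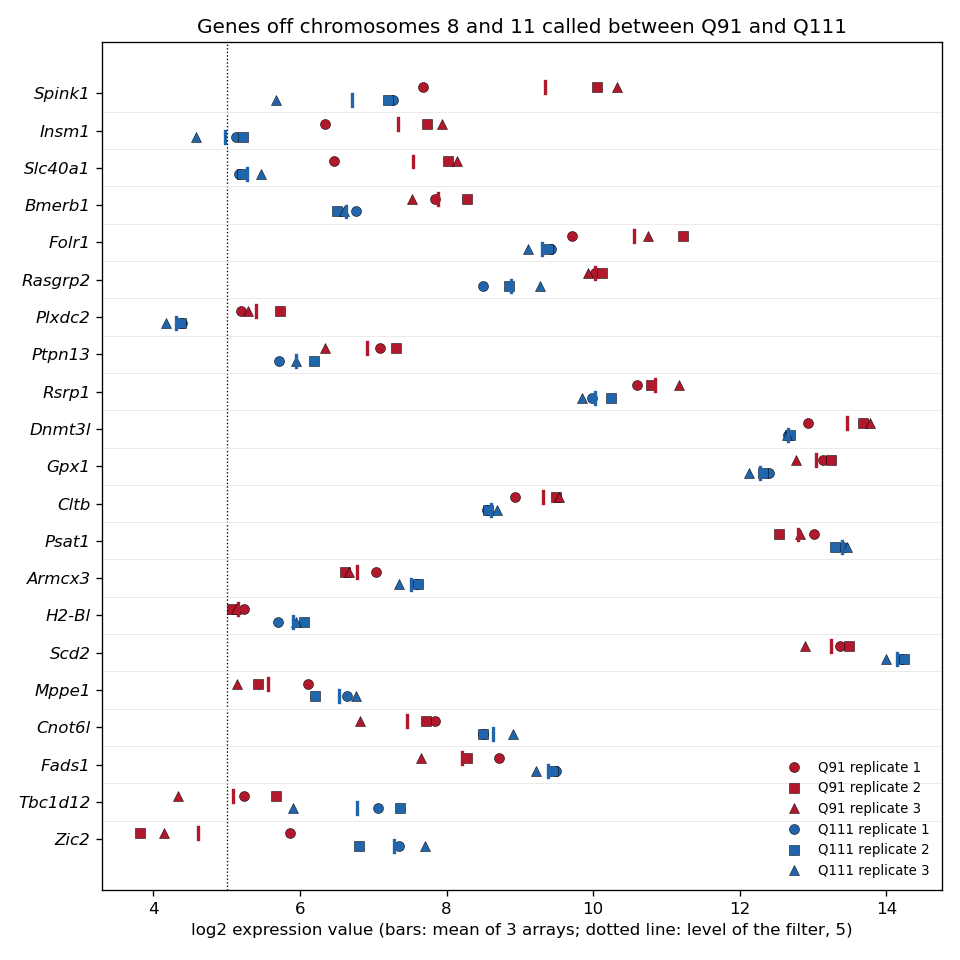
Log2 value (horizontal axis) on each Q91 (red) and Q111 (blue) array for the 21 genes off chromosomes 8 and 11 that passed an adjusted p of 0.05, with bars for the mean of 3 arrays. Q91 replicate 1 (circle) lies nearer to Q111 than its line mates do for Spink1, Insm1, Slc40a1, Zic2 and Dnmt3l.

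How far these genes depend on the arrays that stood apart differed by gene. Of the 30 genes that the naming rule picked (all 21 off chromosomes 8 and 11, the 4 of chromosome 8 and the first 5 of chromosome 11), 28 still passed without Q91 replicate 1 and Q111 replicate 3, and Ptpn13 and Gpx1 did not. The arrays left out were each most like an array of the other line, so that leaving them out widens the difference between the lines. The 30 genes were also picked on these same arrays. The count of 28 is therefore no measure of stability. Insm1, Zic2, H2-Bl and Pgpep1 passed with each of the 6 arrays left out in turn. These passes draw on the spread of the other arrays in the fit. With only the 6 arrays of the 2 lines in the fit 0 of the 30 passed, and with only the 12 knock-in arrays 0 as well. Of the 30, 30 passed without Q91 replicate 1, 9 without Q91 replicate 2, 8 without Q91 replicate 3, 4 without Q111 replicate 1, 10 without Q111 replicate 2 and 19 without Q111 replicate 3. Between Q91 replicate 1 and Q111 replicate 3 alone, the difference was 2.01 for Spink1, 1.75 for Insm1 and 1.00 for Slc40a1, and -1.84 for Zic2, but 0.29 for Dnmt3l, 0.24 for Cltb and -0.11 for Dynll2. The sign of these follows from the choice of genes whose groups did not overlap.

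Genes of cholesterol synthesis and uptake lay lower on all 3 Q91 arrays, and 1 of them passed the test. Sterols are built from acetyl-CoA through mevalonate and squalene, and the genes of the pathway are switched on by SREBP2 when sterols run short. Of 25 genes listed, 20 were measured, of which 0 rose and 1, Mvd, fell. At an unadjusted p under 0.05, 12 were lower and 0 higher, beside 9.26% of all genes lower and 5.13% higher. All 3 Q91 arrays lay below all 3 Q111 arrays for 13 of the 20 and above for 0, beside 6.62% of all genes below and 6.51% above. The list median on each array was -0.43, -0.41 and -0.40 in Q91, against -0.03, -0.04 and 0.09 in Q111. The 3 Q91 arrays were alike here, including the one that stood apart elsewhere. The median difference was -0.46, or -0.44 for the 18 members off chromosomes 8 and 11, beside 0.031 over all genes there, and it was -0.40 without Q91 replicate 1 and Q111 replicate 3.

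Mvd held 8.37, 8.48 and 8.22 in Q91, against 9.30, 9.28 and 8.65 in Q111. Stard4, a sterol carrier, held 9.58, 9.51 and 9.94 in Q91, against 10.31, 10.29 and 10.64 in Q111 (-0.74, adjusted p = 0.0506). Dhcr7, which makes cholesterol in the final step, held 10.01, 9.32 and 9.70 in Q91, against 10.35, 10.48 and 10.48 in Q111 (-0.76, adjusted p = 0.104). None of the 3 had overlapping groups. Sc5d, the sterol desaturase of the step before, held 8.68, 8.56 and 8.18 in Q91, against 9.34, 9.10 and 9.21 in Q111 (-0.74, adjusted p = 0.113). Hmgcs1, which makes the substrate of mevalonate synthesis and was named after its values were seen, held 12.88, 13.36 and 13.51 in Q91, against 13.35, 13.39 and 13.52 in Q111 (-0.17, adjusted p = 0.796), and its groups overlapped. Q111 was the high line for the list as a whole. Measured from the Q111 mean, its array medians ran from -1.17 to -0.54 in controls, from -0.72 to -0.27 in Q20 and from -0.85 to -0.30 in Q50.

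The promoters of 3 members are shown for the motifs named below, as 250 bases before and 50 after the gene's start in RefSeq's GRCm38.p6. Capitals mark CCAAT on either strand (ATTGG when reversed), the box bound by NF-Y, and in Hmgcs1 also TCACNCCAC, the sterol regulatory element.
Mvd, chr8:122443373-122443672, minus strand: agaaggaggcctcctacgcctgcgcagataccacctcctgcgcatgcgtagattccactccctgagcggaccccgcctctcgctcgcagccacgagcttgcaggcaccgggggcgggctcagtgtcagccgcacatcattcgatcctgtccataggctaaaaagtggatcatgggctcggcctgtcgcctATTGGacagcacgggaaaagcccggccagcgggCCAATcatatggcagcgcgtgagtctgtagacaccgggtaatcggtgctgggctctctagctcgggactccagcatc
Hmgcs1, chr13:119690101-119690400, plus strand: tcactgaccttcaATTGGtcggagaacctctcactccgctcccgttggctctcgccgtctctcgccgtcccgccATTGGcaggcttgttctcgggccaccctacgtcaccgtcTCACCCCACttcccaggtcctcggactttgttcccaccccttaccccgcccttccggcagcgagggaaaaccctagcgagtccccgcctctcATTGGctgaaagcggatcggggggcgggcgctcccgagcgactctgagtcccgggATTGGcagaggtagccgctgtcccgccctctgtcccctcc
Sc5d, chr9:42264251-42264550, minus strand: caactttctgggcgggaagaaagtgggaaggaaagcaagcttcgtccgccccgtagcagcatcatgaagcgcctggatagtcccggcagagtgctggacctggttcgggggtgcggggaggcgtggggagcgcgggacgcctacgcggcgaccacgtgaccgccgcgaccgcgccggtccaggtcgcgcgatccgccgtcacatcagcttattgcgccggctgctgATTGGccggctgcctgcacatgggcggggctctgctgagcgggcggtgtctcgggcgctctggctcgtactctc
The table held 19 promoters for 16 of the measured members. CCAAT stood in 16 of the 19 (84.2%), with 1 or more for each member, beside 37.4% of all 32851 promoters searched on both strands. TCACNCCAC stood in 1 of the 19 (5.26%), that of Hmgcs1, beside 1.24% of all promoters. Hmgcs1, with 4 CCAAT boxes and TCACNCCAC, was among the members that differed least, and Mvd, with 2 CCAAT boxes, was the one that fell.

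The integrated stress and unfolded protein response lay lower in Q91 as well. In this response ATF4 turns on genes of amino acid supply when translation initiation is held back, and other branches expand the chaperones of the endoplasmic reticulum. Of 27 genes measured, 0 rose and 1, Psat1, fell. At an unadjusted p under 0.05, 10 were lower and 0 higher, beside 9.26% of all genes lower and 5.13% higher. All 3 Q91 arrays lay below all 3 Q111 arrays for 9 and above for 0, beside 6.62% of all genes below and 6.51% above. The array medians were -0.14, -0.39 and -0.22 in Q91, against 0.04, 0.07 and -0.08 in Q111, with a median difference of -0.19 (-0.32 without Q111 replicate 3 and -0.37 without Q91 replicate 1 as well). For the 24 members off chromosomes 8 and 11 the median difference was -0.14. Nupr1, a stress-induced nuclear protein, held 5.57, 5.65 and 6.23 in Q91, against 7.31, 7.43 and 7.08 in Q111 (-1.45, adjusted p = 0.0506). Asns, asparagine synthetase, held 12.47, 12.46 and 11.89 in Q91, against 12.77, 12.89 and 13.27 in Q111 (-0.70, adjusted p = 0.0547). Both missed the threshold narrowly and neither overlapped between lines. The other serine enzymes, named after their values were seen, differed by -0.50 for Phgdh (adjusted p = 0.116) and -0.53 for Psph (adjusted p = 0.183), without overlap. Herpud1, a member on chromosome 8, held 7.10, 6.21 and 6.41 in Q91, against 8.41, 8.10 and 7.19 in Q111. It differed by -1.33 (adjusted p = 0.0843), without overlap. The chaperones Hspa5 and Hsp90b1 differed by -0.11 and -0.09 and Atf4 itself by -0.10, all with overlapping groups. In controls, set against the Q111 mean, the list ran from 0.02 to 0.24, above all 3 Q91 arrays. Q20 ran from 0.007 to 0.03, and Q50 from -0.21 to -0.03, which overlapped Q91.

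Promoters of Asns and Nupr1 are shown because both hold TGATGNAA, the core of the element that ATF4 binds with C/EBP factors, in capitals on either strand, in the same windows of GRCm38.p6.
Asns, chr6:7693160-7693459, minus strand: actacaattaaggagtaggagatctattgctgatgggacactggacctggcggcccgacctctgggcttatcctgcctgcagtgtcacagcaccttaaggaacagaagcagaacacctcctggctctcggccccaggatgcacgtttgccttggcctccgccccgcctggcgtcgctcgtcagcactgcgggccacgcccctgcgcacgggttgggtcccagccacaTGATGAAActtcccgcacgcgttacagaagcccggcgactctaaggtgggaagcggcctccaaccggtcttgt
Nupr1, chr7:126625421-126625720, minus strand: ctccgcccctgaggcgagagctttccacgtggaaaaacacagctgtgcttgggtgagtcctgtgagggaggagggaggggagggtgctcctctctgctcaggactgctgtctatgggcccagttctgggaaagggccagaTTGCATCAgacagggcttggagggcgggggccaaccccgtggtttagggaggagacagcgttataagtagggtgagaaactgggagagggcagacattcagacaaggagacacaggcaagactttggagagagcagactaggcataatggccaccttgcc
The motif stood in 6 of the 27 promoters that the table held for 25 measured members (22.2%), beside 3.97% of all promoters. A match is a run of letters and no measured site.

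**Figure D5:**
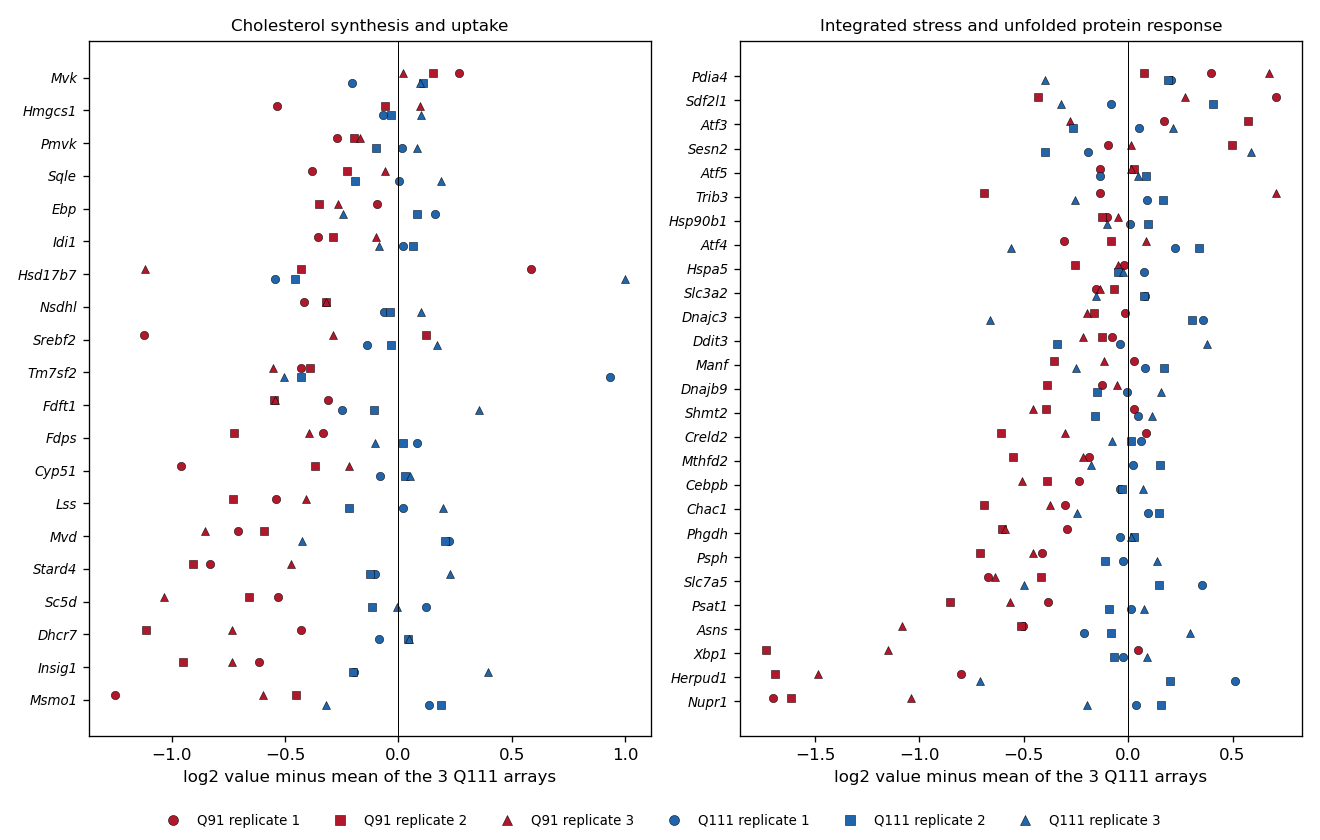
Log2 value minus the mean of the 3 Q111 arrays (horizontal axis) for every measured member of the cholesterol list (left) and of the stress response list (right), on each Q91 (red) and Q111 (blue) array. The members at the bottom of the left panel, from Msmo1 up to Lss, have no overlap between the lines, and Mvk, at the top, lies at or above the Q111 mean in Q91.

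Of the 40 lists examined, 7 had array medians that did not overlap between the lines, 5 lower and 2 higher in Q91. Hypoxia response genes lay lower, with medians of -0.53, -0.31 and -0.37 in Q91, against 0.03, 0.01 and -0.07 in Q111. Of the 16 measured 0 rose, 0 fell, and 4 were lower at an unadjusted p under 0.05. The level of Q91 recurred in other lines. From the Q111 mean, the hypoxia medians ran from -0.50 to 0.22 in controls, from -0.42 to 0.15 in Q20 and from -0.57 to -0.28 in Q50. Egln3, an oxygen-sensing prolyl hydroxylase, held 5.70, 3.82 and 5.24 in Q91, against 7.35, 7.77 and 7.05 in Q111 (-2.47, adjusted p = 0.0907, Q91 mean 4.92). Autophagy and lysosome genes had a median of -0.19 over 26, where 0 passed in either direction and 9 were lower and 0 higher at an unadjusted p under 0.05, but -0.097 for the 17 off chromosomes 8 and 11. It was -0.12 without Q91 replicate 3, -0.10 without Q111 replicate 3 and -0.29 without Q111 replicate 2. Grn, progranulin, on chromosome 11, differed by -0.68 (adjusted p = 0.0546). The 5 metallothionein list genes, 4 of them on chromosome 8, had a median of -0.48, 0 that passed and 0 at an unadjusted p under 0.05. Their median was -0.053 without Q91 replicate 1 and Q111 replicate 3.

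Cell cycle genes lay slightly higher in Q91, with array medians of 0.10, 0.12 and 0.24 against -0.01, -0.01 and 0.04 in Q111; of 30 measured 0 passed, and 5 were higher and 0 lower at an unadjusted p under 0.05. The median difference of 0.15 became 0.23 without Q91 replicate 1 and Q111 replicate 3. From the Q111 mean, the cell cycle medians ran from 0.21 to 0.45 in controls, from 0.001 to 0.12 in Q20 and from 0.21 to 0.29 in Q50. Q91 was thus not the highest line. Ccnd1, cyclin D1, held 11.64, 11.98 and 11.95 in Q91, against 11.32, 11.17 and 11.39 in Q111 (0.56, adjusted p = 0.130). Actin contractile genes had a median of 0.49 over 26, and 1 array set most of its size. Of the 26, 0 passed, and 4 were higher and 0 lower at an unadjusted p under 0.05. All 3 Q91 arrays lay above all 3 Q111 arrays for 9 and below for 0, beside 6.51% of all genes above and 6.62% below. The array medians were 0.13, 1.39 and 0.05 in Q91, against 0.02, -0.03 and -0.02 in Q111, and without Q91 replicate 2 the median difference was 0.081. Acta2, smooth muscle actin, held 10.33, 12.79 and 10.76 in Q91, against 9.12, 9.26 and 9.24 in Q111 (2.08, adjusted p = 0.126). Matricellular YAP targets showed the same array, at -0.02, 1.37 and -0.06 in Q91 and 0.06, -0.09 and 0.003 in Q111.

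In the lists that follow, the array medians of the lines overlapped unless said otherwise. Naive pluripotency genes had medians of -0.01, -0.74 and -0.34 in Q91, against -0.26, -0.32 and 0.60 in Q111, and 0 of the 18 passed, with 4 lower and 0 higher at an unadjusted p under 0.05. Zfp42 differed by -0.50 (adjusted p = 0.0826) and Klf2, a naive-state factor that lies on chromosome 8 like Zfp42, by -0.76 (adjusted p = 0.144). Germline genes that DNA methylation silences were highest in the arrays that resembled each other, at 0.39, -0.85 and -0.37 in Q91 and -0.48, -0.49 and 1.15 in Q111; the germ cell gene Dazl held 9.001, 4.96 and 5.89 in Q91 and 6.89, 7.07 and 10.17 in Q111. Interferon response and MHC class I genes were lower by a median of 0.66 in Q91 with 0 of 17 that passed and 10 lower at an unadjusted p under 0.05, but unevenly, at -0.06, -0.51 and -1.29 in Q91 against 0.01, 0.09 and -0.07 in Q111. Their median difference was -0.38 without Q91 replicate 3, the array on which the feeder markers were lowest as well; their part was not tested. Lefty2, a Nodal antagonist, held 10.88, 10.51 and 10.75 in Q91, against 12.22, 12.31 and 11.69 in Q111 (-1.36, adjusted p = 0.0546), without overlap, while 0 of the 16 genes of its list passed and 1 was higher and 2 lower at an unadjusted p under 0.05.

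The medians of large housekeeping complexes lay close to that of all genes. The 33 proteasome subunits measured had a median difference of 0.001, the 40 respiratory chain subunits of 0.02 and the 25 ribosomal proteins of 0.04, and 0 passed in any of the 3. At an unadjusted p under 0.05, 0 were higher and 6 lower in the proteasome list, 3 and 1 in the respiratory chain list and 1 and 0 in the ribosomal list. The proteasome subunits with the smallest p, Psmd3, Psme3, Psmd11 and Psmd12, lie on chromosome 11. For the 25 proteasome subunits off chromosomes 8 and 11 the median was 0.065. Of all 33, 6 had all 3 Q91 arrays above all 3 Q111 arrays and 2 below. Among 25 huntingtin-binding proteins, 0 rose, Grb2 fell, and the median was 0.02. Polycomb genes had a median of 0.07 over 24, where Suz12, on chromosome 11, was the one that fell.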

How the data were processed

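Total RNA was hybridised to 24 Affymetrix MG 430 2.0 arrays, 1 colour each. The values the authors deposited are log2 expression values of 45101 probe sets, for which the submitters' processing notes name GCRMA, a background-corrected and normalized summary of probes; the sources used here give no version. Groups follow the titles; the description field reverses controls and knock-outs. The 64 AFFX probe sets were left out, and 17980 (39.9%) of 45037 passed the filter. The platform annotation gave 1 gene for 34945 probe sets, several for 932 and none here for 9160, and a gene was represented by its probe set with the highest mean. Probe sets of types s and x, here those of Dnmt3l, Dynll2, Mvd, Psat1, Asns, Phgdh, Atf4, Lss, Acta2 and Grn, can match several transcripts. Chromosomes came from a RefSeq table (GRCm38.p6), which matched 34741. All 24 arrays entered 1 limma fit (R 4.3.3, limma 3.58.1; 18 residual degrees of freedom; two-sided; Benjamini-Hochberg over all probe sets), tested on simulated data. The number of arrays limits the precision.

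Genes were named by rule: off chromosomes 8 and 11 up to 15 of each direction, and on each of the 2 up to 5, with adjusted p under 0.05, no overlap between lines and a line mean of 5 or more; in lists, up to 4 with the smallest p; Htt always. The members and the 40 lists were chosen with earlier results of these data known. Replicate numbers do not pair the lines: deviations of same-numbered arrays correlated with -0.27, 0.15 and -0.14. Alternatives were other arrays in the fit, scaling, filters, a replicate block, array weights, gene means and arrays left out.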

Additional observations from a re-analysis of the deposited data

Results flagged for a closer look

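In the group of 6 controls, control replicate 4 lay far from the other 5 in 7 of the quantities used here. Such a flag comes by chance in about 1 of 20 groups, and the quantities share arrays. Its median of chromosome 8 genes, against the control mean, was -0.30, where the others ran from 0.0007 to 0.10. The strongest Htt probe set stood at 7.45 (others 8.01 to 8.25), Folr1 at 9.81 (others 9.29 to 9.49), Dnmt3l at 12.9 (others 12.4 to 12.5), Fads1 at 8.18 (others 8.77 to 9.10) and Scd2 at 13.1 (others 13.4 to 13.6). The median of the cholesterol list, against the Q111 mean, was -1.17 (others -0.72 to -0.54). Control replicate 1 was far from the others for Trpv2, at 3.89 (others 4.54 to 4.67). These arrays touch the Q91 minus Q111 difference only through the shared spread of the fit.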

How the results depend on the processing

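The number of calls was the least stable result. Against 81 probe sets and 21 genes off chromosomes 8 and 11, leaving out 1 array gave 8 to 1280 probe sets and 3 to 410 genes, and leaving out Q91 replicate 1 with Q111 replicate 3 gave 1047 and 323. The fit on 6 arrays gave 0 and 0 (1470 probe sets and 491 genes at an unadjusted p under 0.05), that on the 12 knock-in arrays 2 and 0 (1424 and 470), quantile normalization 124 and 42, no filter 53 and 12, array weights 2255 and 739, and genes of chromosomes 8 and 11 taken minus their chromosome median 31 and 10. In that last setting the values of genes off chromosomes 8 and 11 were unchanged. Their calls shifted through the fit and the adjustment, which all probe sets share. The mean of all probe sets of a gene gave 42 genes. The replicate block gave 0 and 0 (limma, 1193 and 364 at an unadjusted p under 0.05), and whether the numbers pair the samples is not known. Without a filter the median differences of chromosomes 8 and 11 were -0.11 and -0.10; leaving out 1 array gave -0.53 to -0.25 and -0.55 to -0.26. The second Htt probe set reversed to -0.0023 with array weights, -0.085 without Q111 replicate 3 (leaving out 1 array, -0.085 to 0.19) and -0.091 without both arrays. Of 507 pairs of a named gene and a setting, 270 stayed on the same side of the threshold, 237 fell short and 0 reversed. The genes were picked for passing with groups that did not overlap. With arrays left out or other arrays in the fit, the sign could therefore not reverse, and the 0 is no measure of stability. Any further cause of the changes between settings was not tested. The 3 arrays of each line and the signal near background under a log2 value of 5 limit what can be told.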
